A study of Arabidopsis thaliana with 8 samples.

Results

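The 31 genes described here code for enzymes of the Calvin cycle and of photorespiration in Arabidopsis thaliana. They were chosen by pathway as a list of nuclear loci, 19 for the Calvin cycle and 12 for photorespiration. Earlier results of these data were known when the list was made. Probes were matched to 30 of the 31 loci through the RefSeq transcript named for each probe, and these 30 passed the filter on dim probes, among 25093 genes tested in all. GLDT (AT1G11860), the T protein of glycine decarboxylase, had no matched probe and was not analysed here.

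Leaf RNA was measured on 8 Agilent arrays with 1 colour each. The wild type, Col-0, and the genotype 35S::Rap2.9-GFP had 4 arrays each, with Col-0 as the background of both. In the transgenic plants the AP2/ERF transcription factor RAP2.9 is made as a fusion with green fluorescent protein, driven by the viral 35S promoter, which is active in most plant cells. The labels give neither the number of independent lines nor the number of plants per sample. All plants were untreated and 54 days old, after a cold period for the seeds of 3 days (7 °C, dark). Short days of 8 h of light at 22 °C lasted 20 days, and days of 12 h, at 22 °C by day and 18 °C by night with 60 µmol of light and 60% humidity, lasted the last 34 days. The comparison asks which leaf transcripts differ when RAP2.9 is overexpressed.

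In the Calvin cycle, Rubisco joins CO2 to ribulose bisphosphate in the chloroplast, the product 3-phosphoglycerate is reduced to triose phosphate, and most of the triose phosphate is turned back into ribulose bisphosphate. Rubisco also takes up O2, which yields phosphoglycolate. Photorespiration recovers that carbon along a route through chloroplast, peroxisome and mitochondrion, releasing CO2 and ammonium in the mitochondrion. Transcripts of these enzymes are among the most abundant in green leaves.

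A level is given as log2 of a probe's processed signal minus log2 of the 75th percentile of all gene probes on the same array. A change is the transgenic mean minus the wild-type mean of these levels, so a change of 1 is a doubling of the signal relative to that percentile. That percentile was a signal of 1699 to 2576, and on an array 72.5% to 84.4% of probes exceeded background clearly. The number of arrays, 4 of each genotype, limits the precision. Slides 1 and 2 each carried 2 wild-type and 2 transgenic arrays, and changes within a slide compare these. One RAP2.9 probe rose by 4.14 ± 0.15 (SE, n = 4 per genotype) with every transgenic array above every wild-type array, and the other RAP2.9 probe fell by 1.77 ± 0.23 (SE), also with no overlap. Of the 6 leaf mesophyll marker genes all were well above background on all arrays. Their summed linear level was 796 to 959 in the wild type and 764 to 1059 in the transgenic leaves. At the brightest probe of each gene only LHCB2.1 passed the threshold, with a change of 1.03. Over all their probes, 2 of 2 passed as higher for LHCB2.1, 3 of 4 for LHCB3 and 2 of 5 for PSAD1. For CAB2 it was 1 of 3, for LHCA1 1 of 5 and for PSBO1 0 of 3, and none passed as lower. Summed levels of the 5 xylem markers were 0.633 to 1.57 and 1.58 to 2.46, those of the 4 guard cell markers 1.66 to 2.1 and 2.52 to 2.72, and those of the 3 senescence markers 0.426 to 1.22 and 1.95 to 4.38, in the wild type and the transgenic leaves respectively. All 12 genes of these 3 lists passed the threshold as higher. Of the senescence markers, SAG12 and SAG29 were well above background on only 1 wild-type array, against 4 transgenic arrays. The size of their changes therefore rests on wild-type levels near the floor. SAG12 and SAG29 also met the filter on dim probes only through the transgenic arrays, so no weight is put on their calls. The 2 tested root markers and the 2 tested flower markers also passed as higher, and the 2 tested trichome markers did not pass. EXPA7 (root), AP3 (flower) and GL1 (trichome) were well above background on no array, while summed levels were 0.0822 to 0.171 and 0.351 to 1.124 for the root list and 0.0544 to 0.123 and 0.156 to 0.281 for the flower list. In whole leaves a change in the number of cells of a type and a change in RNA per cell cannot be told apart, and the part of these markers in the results below was not tested.

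The pathway genes that passed the test moved in both directions and by small amounts. Higher in the transgenic leaves were TIM, SBPASE and GAPA2 of the Calvin cycle and PGLP1, the entry enzyme of photorespiration. Lower were the aldolase FBA1 of the Calvin cycle, and GOX1, GOX2, AGT and GLDP1 of the photorespiratory steps in peroxisome and mitochondrion. With limma and Benjamini-Hochberg adjustment over all genes, 4 members passed the threshold of 0.05 as higher, 5 as lower and 21 did not pass. Among all genes tested, 34.6% passed, 18.6% as higher and 16% as lower, so the 30% of members that passed is close to that background.

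The changes of the members were small. They ran from -0.36 to 0.40, with a median size of 0.11 regardless of direction, against 0.24 over all genes tested. These sizes are for the brightest probe of each gene, and the genes were not matched for signal. Over all tested probes of the members the changes ran from -0.48 (GLDP1) to 0.64 (RBCS1A). No member changed by 1 or more, while 2108 of the 25093 genes did. The median signed change was 0.03 for the members and 0.03 for all genes. Transgenic arrays lay wholly above the wild-type arrays for 3 members and wholly below for 6, and over all genes 36.7% did not overlap. Of the 19 Calvin cycle members 3 were higher and 1 lower, with a median change of 0.04. Of the 11 photorespiration members tested 1 was higher and 4 were lower, with a median of -0.02. Calls in either direction made up 21.1% of the Calvin cycle members and 45.5% of the photorespiration members, beside 34.6% of all genes. Whether these lists differ from each other or from all genes was not tested.

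**Figure D1:**
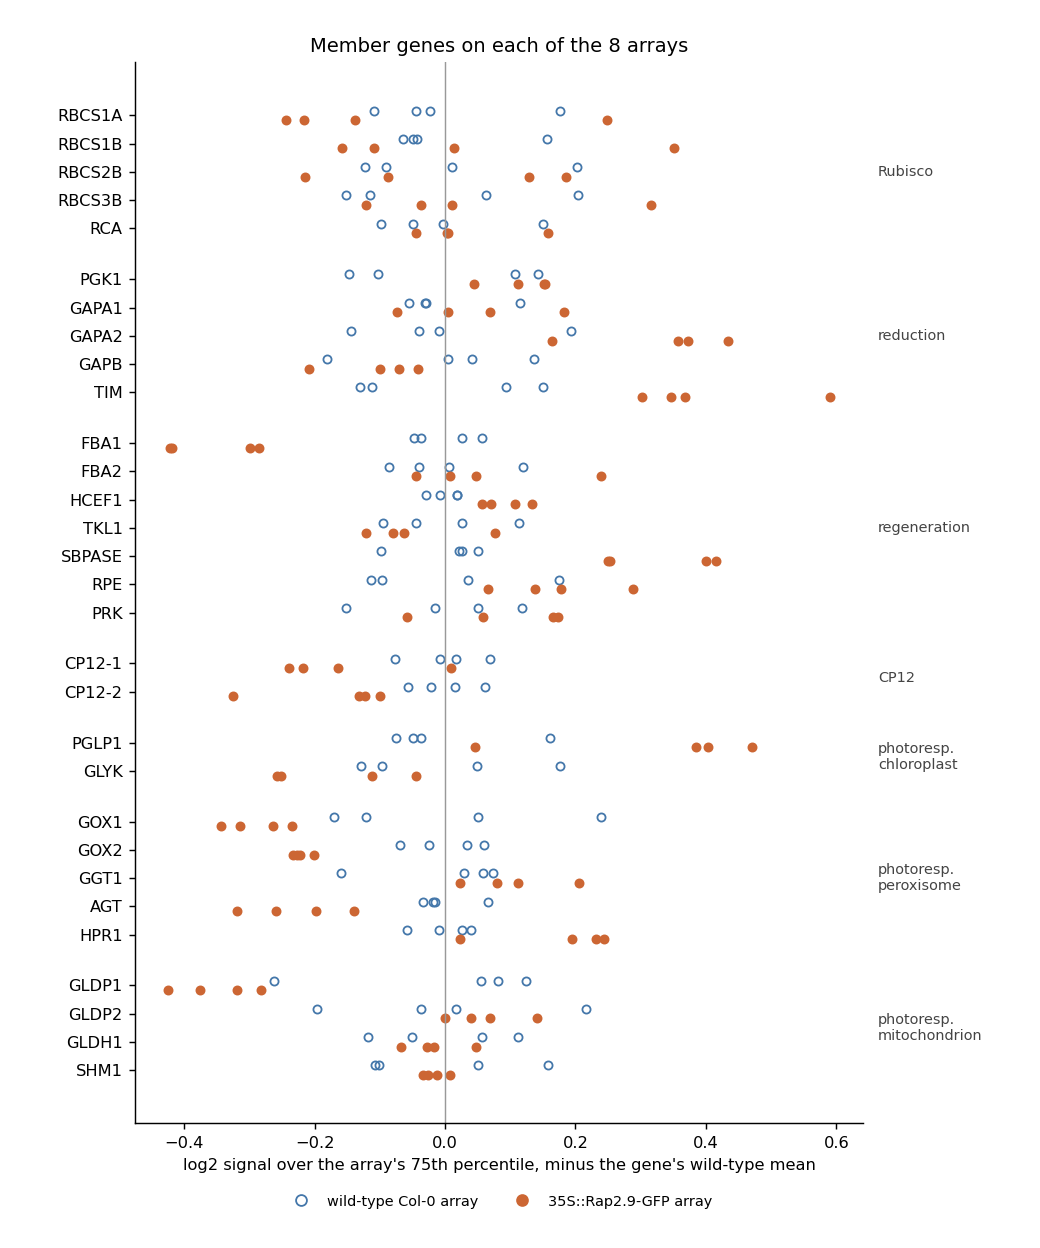
Level of each tested member on each array, as its log2 difference from the gene's wild-type mean, with open circles for the 4 wild-type arrays and filled circles for the 4 transgenic arrays. Filled circles lie wholly to the right for TIM, SBPASE and HCEF1 and wholly to the left for FBA1, CP12-2, GOX1, GOX2, AGT and GLDP1.

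The small subunit of Rubisco is coded in the nucleus by RBCS1A (AT1G67090), RBCS1B (AT5G38430), RBCS2B (AT5G38420) and RBCS3B (AT5G38410), the last 3 of which are neighbours in the gene table. At the brightest probe of each, no RBCS gene passed the threshold. The level of RBCS1A was 7.35, 7.41, 7.43 and 7.63 in wild-type replicates 1 to 4 and 7.32, 7.70, 7.24 and 7.21 in transgenic replicates 1 to 4. RBCS1B stood at 7.05, 7.04, 7.03 and 7.25 in the wild type and at 7.10, 7.44, 6.93 and 6.98 in the transgenic leaves. In both genes transgenic replicate 2 was the highest array and transgenic replicates 3 and 4 were the lowest, so the genotypes overlapped. For RBCS2B the wild-type arrays gave 7.24, 6.95, 6.91 and 7.05 and the transgenic arrays 7.16, 7.22, 6.82 and 6.95. RBCS3B gave 7.45, 7.13, 7.10 and 7.31 against 7.26, 7.57, 7.21 and 7.13. These arrays also overlapped, and the changes of the 4 genes ran from -0.09 to 0.04, with adjusted p from limma of 0.614 to 0.988 and no unadjusted p below 0.498. The 95% interval of the change went from -0.37 to 0.20 for RBCS1A, and those of the other 3 genes lay within -0.26 and 0.32.

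The RBCS result rested on which probe stood for the gene. RBCS1A has 13 tested probes, and their changes ran from -0.09 at the brightest to 0.64 ± 0.10 (SE) at the dimmest, with 3 probes past the threshold as higher. At the dimmest RBCS1A probe the levels were 5.39 ± 0.19 (SD, n = 4) in the wild type and 6.03 ± 0.10 (SD, n = 4) in the transgenic leaves, with no overlap and an adjusted p from limma of 0.00306 over all probes. RBCS2B had 2 of 5 probes higher, RBCS3B had 0 of 4, and RBCS1B had 1 of 4 lower, its dimmest, with a change of -0.37 ± 0.06 (SE). Over the 26 RBCS probes 21 changes were above 0, 5 probes passed as higher and 1 as lower, and across all probes tested 34% passed. Pearson's r between a probe's change and its mean log2 signal was -0.51 across these 26 probes, which share arrays and target genes, so this is a description only. Copies of the small subunit gene are nearly identical, and which copy a probe reads was not checked here.

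The brightest RBCS probes were below the signal given for saturation. The brightest RBCS1A probe had a mean signal of 357768, and the scanner software gives 634474 as the signal at which a spot saturates. Only 1 spot over all 8 arrays carried the saturation flag. Why the changes differed between bright and dim RBCS probes was not tested.

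RCA (AT2G39730) codes for Rubisco activase, which frees Rubisco from bound sugar phosphates. Its brightest probe stood at 6.43, 6.18, 6.23 and 6.28 in wild-type replicates 1 to 4 and at 6.29, 6.44, 6.29 and 6.24 in transgenic replicates 1 to 4. The arrays overlapped, and the change of 0.03 ± 0.07 (SE) did not pass. Of the 9 RCA probes 4 passed as higher, with changes of 0.20, 0.35, 0.33 and 0.30, and each of these had all transgenic arrays above all wild-type arrays. The other 5 probes, the brightest and the 4 dimmest, did not pass, with changes of -0.08 to 0.16. RCA is spliced into more than one transcript, and the probes carry 2 RefSeq transcript names, the brightest one alone bearing the second.

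Of the 5 genes grouped here under reduction, 2 passed as higher and none as lower, beside 18.6% and 16% of all genes. The group includes TIM, an isomerase that carries out no reduction itself. TIM (AT2G21170), the chloroplast triose phosphate isomerase, stood at 2.91, 2.63, 2.65 and 2.86 in the wild type and at 3.13, 3.11, 3.07 and 3.35 in the transgenic leaves. Every transgenic array was above every wild-type array, and TIM rose by 0.40 ± 0.09 (SE, n = 4 per genotype), which is 1.32-fold, with an adjusted p from limma of 0.0147. GAPA2 (AT1G12900), an A subunit of chloroplast glyceraldehyde-3-phosphate dehydrogenase, stood at 5.29, 4.95, 5.05 and 5.09 against 5.53, 5.45, 5.26 and 5.47. Transgenic replicate 3 was just below wild-type replicate 1 and the other 3 transgenic arrays were above all wild-type arrays. GAPA2 rose by 0.33 ± 0.09 (SE), with an adjusted p of 0.0265. Within the slides the change was 0.45 and 0.35 for TIM and 0.29 and 0.38 for GAPA2. With arrays scaled to their median, the adjusted p was 0.0648 for TIM and 0.0674 for GAPA2, and with normexp the GAPA2 change was 0.41 (adjusted p = 0.054). The GAPA2 call was also lost without any one of wild-type replicates 2, 3 and 4 or transgenic replicates 1, 2 and 4, with adjusted p of 0.0553 to 0.0658.

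The other genes of this group did not pass. GAPA1 (AT3G26650), the second A subunit gene, changed by 0.05, the B subunit gene GAPB (AT1G42970) by -0.10 and PGK1 (AT3G12780), a phosphoglycerate kinase, by 0.12. The 3 probes of GAPB ranged from -0.10 to 0.08 and those of PGK1 from 0.12 to 0.28, with none past the threshold.

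Of the 7 genes grouped under regeneration of ribulose bisphosphate, 1 was higher and 1 lower, beside 18.6% and 16% of all genes. SBPASE (AT3G55800) codes for sedoheptulose bisphosphatase, an enzyme with no counterpart in glycolysis. Its level was 4.26, 4.14, 4.26 and 4.29 in the wild type and 4.65, 4.49, 4.49 and 4.64 in the transgenic leaves. No array overlapped, and SBPASE rose by 0.33 ± 0.06 (SE), 1.26-fold, with an adjusted p from limma of 0.00673 and changes of 0.30 and 0.36 within the slides. Its second probe also passed, with 0.39. FBA1 (AT2G21330), a chloroplast fructose bisphosphate aldolase, stood at 5.34, 5.24, 5.25 and 5.31 in the wild type and at 5.00, 4.86, 4.86 and 4.98 in the transgenic leaves. It fell by 0.36 ± 0.06 (SE), 1.28-fold, with no overlap and the smallest adjusted p of the members, 0.00285. The second FBA1 probe fell by 0.48, and the changes within the slides were -0.37 and -0.34. With normexp neither gene passed, at 0.35 for SBPASE (adjusted p = 0.0769 from limma) and -0.28 for FBA1 (0.128).

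The other 5 regeneration genes did not pass. HCEF1 (AT3G54050), the chloroplast fructose bisphosphatase, had all transgenic arrays, at 5.25 to 5.33, above all wild-type arrays, at 5.17 to 5.21, but a change of 0.09 with an adjusted p from limma of 0.141. The aldolase FBA2 (AT4G38970) changed by 0.06, transketolase TKL1 (AT3G60750) by -0.05, ribulose phosphate epimerase RPE (AT5G61410) by 0.17 and phosphoribulokinase PRK (AT1G32060), which makes the CO2 acceptor, by 0.08. No probe of these 5 genes passed.

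CP12 proteins bind glyceraldehyde-3-phosphate dehydrogenase and phosphoribulokinase into an inactive complex in the dark. CP12-1 (AT2G47400) and CP12-2 (AT3G62410) both had negative changes, -0.15 ± 0.07 (SE) and -0.17 ± 0.07 (SE), with adjusted p from limma of 0.127 and 0.0803. For CP12-2 all transgenic arrays, at 3.09 to 3.31, were below all wild-type arrays, at 3.35 to 3.47. CP12-1 had 2 of 4 probes past the threshold as lower, at -0.20 and -0.28, and the 2 others at -0.15 and -0.13. CP12-1 passed without transgenic replicate 2 (-0.21, adjusted p = 0.0305), and with median scaling both genes passed (adjusted p of 0.0438 and 0.0234). CP12-1 also passed as lower with the mean of its 4 probes and with its dimmest probe in place of the brightest. The dimmest probe was an alternative added after seeing the data.

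**Figure D2:**
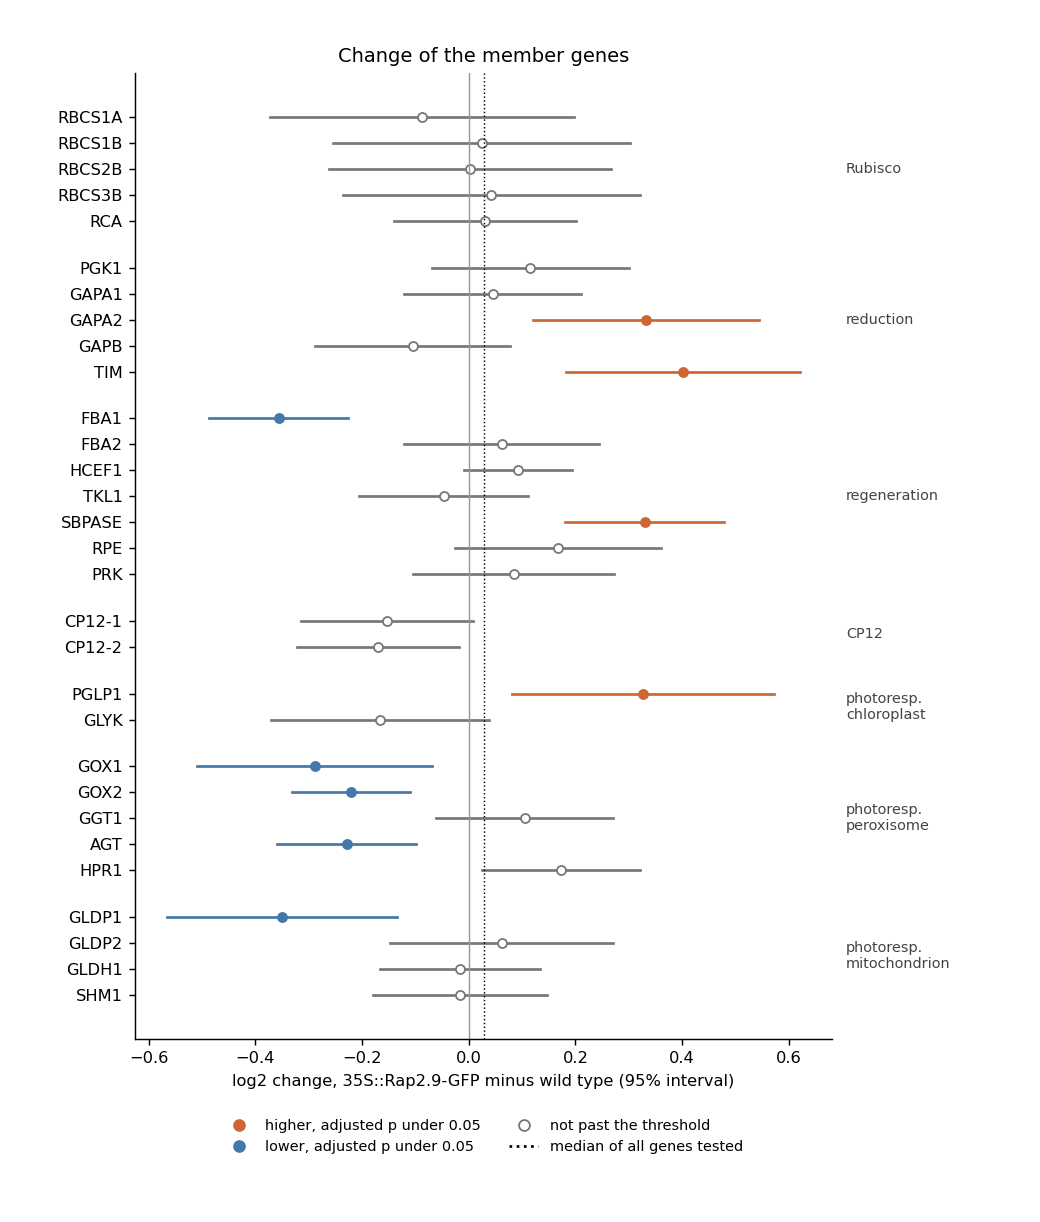
Change of each tested member with its 95% interval (log2, transgenic minus wild type), filled where the adjusted p from limma was under 0.05. The 4 higher genes lie between 0.33 and 0.40, the 5 lower ones between -0.36 and -0.22, and the dotted line marks the median of all genes tested at 0.03.

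Of the chloroplast enzymes of photorespiration, the first was higher. PGLP1 (AT5G36700), the phosphoglycolate phosphatase, stood at 2.64, 2.40, 2.43 and 2.44 in the wild type and at 2.88, 2.53, 2.86 and 2.95 in the transgenic leaves. Transgenic replicate 2 lay below wild-type replicate 1, and the other 3 transgenic arrays lay above all wild-type arrays. PGLP1 rose by 0.33 ± 0.11 (SE), with an adjusted p from limma of 0.0471, and its second probe passed with 0.29. The call was close to the threshold: it was lost with the slide as a block (0.0705), with median scaling (0.157), with normexp (0.0932), and without any one of wild-type replicates 2, 3 and 4 or transgenic replicates 1, 3 and 4 (0.0993 to 0.112). The change was 0.20 on slide 1 and 0.45 on slide 2. AT5G36790 is annotated as a second gene like PGLP1 and had no matched probe, and whether the PGLP1 probes also read it was not checked here. GLYK (AT1G80380), the glycerate kinase that closes the cycle in the chloroplast, changed by -0.17 ± 0.09 (SE) and did not pass.

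Of the 5 peroxisomal members 3 were lower and none was higher, where over all genes 16% were lower and 18.6% higher. All 3 calls were lost with normexp background correction, under which the lower calls over all genes fell from 4025 to 1499. GOX1 (AT3G14420) and GOX2 (AT3G14415), neighbours in the gene table, code for glycolate oxidases, which make glyoxylate and hydrogen peroxide. GOX2 stood at 4.80, 4.83, 4.70 and 4.74 in the wild type and at 4.54, 4.53, 4.55 and 4.57 in the transgenic leaves, a fall of 0.22 ± 0.05 (SE) with an adjusted p from limma of 0.0105. For GOX1 the values were 5.24, 4.88, 4.83 and 5.05 against 4.73, 4.76, 4.68 and 4.66, with a change of -0.29 ± 0.09 (SE) and an adjusted p of 0.0488. In both genes every transgenic array was below every wild-type array. Changes within the slides were -0.20 and -0.24 for GOX2 and -0.32 and -0.25 for GOX1. The GOX1 call was lost without any one array except wild-type replicate 3 (adjusted p of 0.0528 to 0.114), with the slide as a block (0.071) and with the mean of its 4 probes (-0.19, 0.0604). With normexp the change was -0.10 for GOX2 (adjusted p = 0.65 from limma) and -0.15 for GOX1 (0.3).

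AGT (AT2G13360) codes for the serine glyoxylate aminotransferase. It stood at 5.62, 5.70, 5.60 and 5.62 in the wild type and at 5.49, 5.43, 5.37 and 5.31 in the transgenic leaves. The arrays did not overlap, and AGT fell by 0.23 ± 0.06 (SE), with an adjusted p from limma of 0.0174 and changes of -0.23 and -0.22 within the slides. All 4 AGT probes had negative changes, -0.23 to -0.08, and 2 of them passed. With normexp the change of AGT was -0.12 and did not pass (adjusted p = 0.67 from limma). HPR1 (AT1G68010), the peroxisomal hydroxypyruvate reductase, stood at 4.39, 4.44, 4.47 and 4.49 against 4.69, 4.47, 4.68 and 4.64. Transgenic replicate 2 lay among the wild-type arrays and the other 3 were above them. The change of 0.17 ± 0.06 (SE) did not pass (adjusted p = 0.0699 from limma), and it passed without transgenic replicate 2 (0.22, adjusted p = 0.0158). GGT1 (AT1G23310), the glutamate glyoxylate aminotransferase, changed by 0.11 and did not pass, with 1 of its 4 probes past the threshold at 0.19.

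In the mitochondrion glycine decarboxylase and serine hydroxymethyltransferase turn glycine into serine. GLDP1 (AT4G33010), a P protein of glycine decarboxylase, stood at 3.16, 3.12, 2.77 and 3.09 in the wild type and at 2.72, 2.75, 2.61 and 2.66 in the transgenic leaves. The arrays did not overlap, though wild-type replicate 3 came close to the transgenic arrays. GLDP1 fell by 0.35 ± 0.09 (SE), with an adjusted p from limma of 0.0233, and all 3 of its probes passed, at -0.33 to -0.48. Within the slides the change was -0.26 and -0.44. The call was lost without any one of wild-type replicates 1, 2 and 4 or transgenic replicates 3 and 4 (0.0558 to 0.0637), and with normexp (-0.27, 0.126). GLDP2 (AT2G26080), the other P protein, changed by 0.06, the H protein gene GLDH1 (AT2G35370) by -0.02 and SHM1 (AT4G37930), a serine hydroxymethyltransferase, by -0.02, and no probe of these genes passed.

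The counts moved with the processing. The number of higher members was 1 with median scaling, with 7 lower, and 1 with normexp background correction, with 0 lower in limma and 2 lower at an unadjusted p under 0.05. The gene with the highest change, TIM, was the higher one under normexp, and SBPASE was the higher one under median scaling. Without the filter on dim probes GAPA2, PGLP1 and GOX1 did not pass (adjusted p from limma of 0.0515, 0.0843 and 0.088). Leaving out wild-type replicate 2, 3 or 4 or transgenic replicate 1 or 4 left 2 members higher, and leaving out wild-type replicate 1, 2 or 4 or transgenic replicate 3 or 4 left 3 lower. No called member changed sign under any of the 20 alternatives.

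For 5 of these proteins exactly 2 members are isoforms of each other, which allows a comparison inside an array that scaling by 1 factor per array cannot move. For each pair the difference of the 2 levels on an array was compared between genotypes with an exact two-sided permutation test over the 8 arrays, whose smallest possible p is 0.0286. The pairs were compared with the single-gene results known, and the p-values were adjusted over the 5 pairs. The difference of GAPA2 and GAPA1 was -0.80, -0.96, -0.88 and -0.86 in wild-type replicates 1 to 4 and -0.51, -0.70, -0.64 and -0.51 in transgenic replicates 1 to 4. The transgenic arrays all lay above the wild-type arrays, by 0.29 on average.

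For FBA2 minus FBA1 the arrays gave 1.57, 1.51, 1.55 and 1.39 in the wild type and 1.75, 2.16, 1.94 and 1.85 in the transgenic leaves, a shift of 0.42. GLDP2 minus GLDP1 gave -1.43, -1.64, -1.46 and -1.56 against -1.21, -1.10, -1.06 and -1.08, a shift of 0.41. Neither pair overlapped between genotypes. Each of these 3 pairs had an exact permutation p of 0.0286, the smallest possible, and an adjusted p of 0.0477. The 2 glycolate oxidase genes shifted by 0.07 against each other (exact p = 0.514, adjusted 0.643) and the CP12 genes by -0.02 (exact p = 0.857), with overlapping arrays, so no unequal change was detectable in these pairs with 4 arrays of each genotype. GOX2 had only 1 tested probe, and whether a probe reads only 1 gene of its pair was not checked here. Shifts within the slides were 0.24 and 0.34 for the GAPA pair, 0.45 and 0.39 for the FBA pair and 0.36 and 0.47 for the GLDP pair.

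The adjusted p of the 3 pairs moved with the arrays and probes used. Without wild-type replicate 2 or 4 the adjusted p of the 3 pairs was 0.0714 to 0.0952, with shifts of 0.26 and 0.29 for the GAPA pair, 0.42 and 0.38 for the FBA pair and 0.37 and 0.40 for the GLDP pair. The value of 0.0952 was that of the GAPA pair without replicate 2 and of the FBA pair without replicate 4. In each case the others of the 3 pairs, always including the GLDP pair, kept the smallest possible exact p. Their adjusted p rose only because 1 pair did not keep it. With the dimmest probe of each gene in place of the brightest, a choice made after seeing the data, the GLDP shift was 0.03 (adjusted p = 0.83 from the exact test), since the dimmest GLDP2 probe had a change of -0.45.

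**Figure D3:**
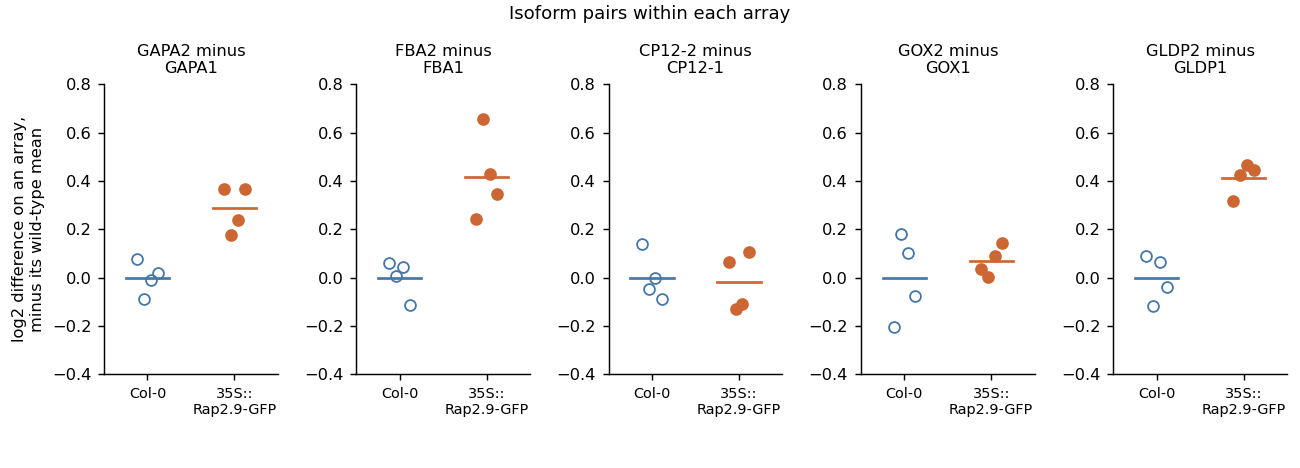
Difference between the levels of 2 genes of the same enzyme on each array, minus its wild-type mean (log2), with open circles for wild-type and filled circles for transgenic arrays and lines at the means. The genotypes separate for the GAPA, FBA and GLDP pairs, with shifts of 0.29, 0.42 and 0.41, and overlap for the CP12 and GOX pairs.

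Genes outside the 31, listed as isoforms or partners of these pathways with earlier results of these data known, included larger changes. Of 17 other Calvin cycle genes, taken as further isoforms, Rubisco assembly and repair factors, carbonic anhydrases and the triose phosphate exporter, 8 passed as higher and 2 as lower, with a median change of 0.20. Over all genes tested 34.6% passed, 18.6% as higher and 16% as lower. CA1 (AT3G01500) and CA2 (AT5G14740), carbonic anhydrases that speed the exchange of CO2 and bicarbonate, rose by 0.96 ± 0.26 (SE) and 0.64 ± 0.16 (SE), with adjusted p from limma of 0.0239 and 0.0205. CA1 ran from 4.32 to 5.36 in the wild type and from 5.39 to 5.94 in the transgenic leaves, so the arrays did not overlap, but they were widely spread. The CP12-3 gene (AT1G76560) rose by 0.41 and the aldolase gene FBA3 (AT2G01140) by 0.32. The ribose phosphate isomerase gene RPI (AT3G04790), which acts beside RPE, fell by 0.34, and RBCX1 (AT4G04330), a Rubisco assembly chaperone, by 0.30. Adjusted p of these 4 ran from 0.0116 to 0.0224.

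The count of 8 was lower in many settings. It was 3 with median scaling, 4 with normexp, 2 without wild-type replicate 2, 3 without wild-type replicate 3 or 4 or transgenic replicate 4, 4 without transgenic replicate 1 and 5 without transgenic replicate 2. The CA1 call was lost without wild-type replicates 2 or 3 or transgenic replicates 1 or 4 (adjusted p of 0.055 to 0.062), that of CA2 without wild-type replicate 2 or transgenic replicate 4 (0.053 and 0.0546), and that of CP12-3 without wild-type replicates 1, 3 or 4 or transgenic replicate 2 (0.0507 to 0.0612). RPI lost its call with normexp (-0.30, 0.0976).

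The 22 other photorespiration genes were taken as further isoforms, genes of ammonium refixation, transporters and peroxisomal partners. Whether each takes part in photorespiration was not checked here. Of the 22 genes, 21 were tested, 5 passed as higher and 3 as lower, with a median change of 0.13. Over all genes 34.6% passed, 18.6% as higher and 16% as lower. HPR3 (AT1G12550), a further hydroxypyruvate reductase, fell by 0.80 ± 0.06 (SE), 1.74-fold, with an adjusted p from limma of 0.000103. Its levels were -0.77 to -0.70 in the wild type and -1.62 to -1.41 in the transgenic leaves, far apart compared with their spread. CAT2 (AT4G35090), the catalase that removes the hydrogen peroxide made by glycolate oxidase, rose by 0.72 ± 0.10 (SE), with an adjusted p of 0.00135, from 1.94 to 2.31 in the wild type to 2.68 to 2.91 in the transgenic leaves. HPR3 and CAT2 kept their calls under all 20 alternatives.

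The genes that take up the released ammonium, GLN2 (AT5G35630), the chloroplast glutamine synthetase, and GLU1 (AT5G04140), a ferredoxin-dependent glutamate synthase, rose by 0.34 and 0.26, with adjusted p from limma of 0.0156 and 0.033. The dicarboxylate transporter gene DIT1 (AT5G12860), which works with them, rose by 0.42 (adjusted p = 0.0251). The carrier gene BOU (AT5G46800), which is needed for glycine decarboxylase activity, fell by 0.23 (adjusted p = 0.0107). GLU1 lost its call without any one of wild-type replicates 1, 2 and 3 or transgenic replicates 1, 2 and 4 (0.058 to 0.082) and DIT1 without wild-type replicates 2 or 3 or transgenic replicates 1 or 4 (0.0549 to 0.0631). With normexp GLU1, DIT1 and BOU did not pass (adjusted p of 0.211, 0.0578 and 0.129). The count of 5 higher genes was 2 with median scaling, with normexp, and without transgenic replicate 1 or 4, and 3 without wild-type replicate 2 or 3.

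**Figure D4:**
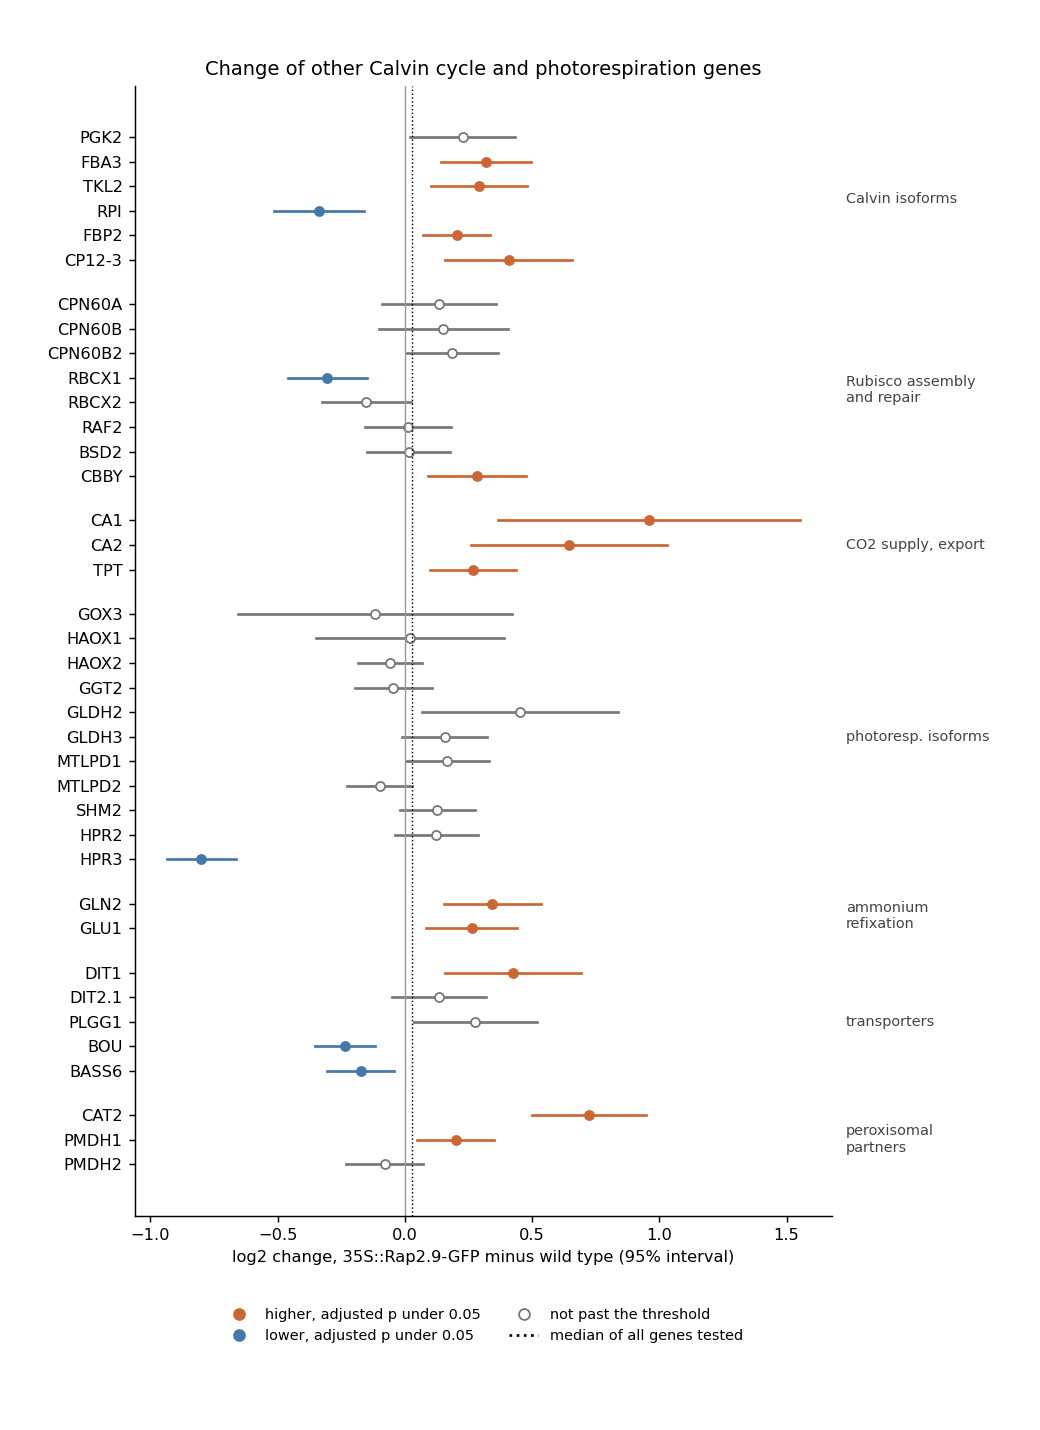
Change of the 38 tested genes listed as other Calvin cycle or other photorespiration genes, with 95% intervals (log2, transgenic minus wild type), filled where the adjusted p from limma was under 0.05. CA1 (0.96), CAT2 (0.72) and CA2 (0.64) lie farthest to the right and HPR3 (-0.80) farthest to the left, outside the range of the members, -0.36 to 0.40.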

How the data were processed

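Spot intensity was extracted with Agilent Feature Extraction 11.5.1.1, per the file headers, which also give the processed signal as background-subtracted, with no scaling between arrays. Per the labels, 200 ng of RNA was labelled with Cy3 for each array. The log2 value table deposited by the authors gives no normalisation. Across probes its columns had r of 0.9999 or more with quantile-normalised log2 signals centred on each probe's median, and its column medians for replicates 1 to 4 were 0.0015, 0.0116, -0.0036 and 0.0041 (wild type) and -0.0146, -0.0040, -0.0025 and 0.0019 (transgenic). It served as an alternative.

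Here log2 processed signal minus each array's 75th percentile was used. Controls and outlier-flagged spots were left out, saturated spots were kept, and a probe had to be well above background on at least 4 of 8 arrays. Probes were matched through RefSeq transcripts (34348 of 43603). The brightest tested probe stood for a gene, and 20270 of the 25093 genes have a locus name. limma 3.58.1 in R 4.3.3 (lmFit, eBayes, two-sided) compared genotypes, with Benjamini-Hochberg adjustment over all genes. The series calls the samples biological replicates; whether they came from separate plants or pools is not given. Each of the 2 slides held 2 arrays of either genotype. Same-numbered replicates shared no slide, and the correlations of their deviations were 0.16, -0.09, -0.32 and 0.28, so the numbers were not used as pairs.

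Members and lists were chosen with earlier results of these data known. Values on every array are given for RBCS, RCA and the 10 members with the smallest p, and from each other list up to 6 genes past the threshold with the largest change; probes of members, CP12 and HCEF1 ranges and the isoform pairs were chosen after values were seen. Alternatives changed the background correction (normexp, offset 50, on the median spot signal, since no mean signal is in the files), scaling, filter, probe choice, slide or replicate blocks, and left out each array. Sequences and positions are not used here.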

Additional observations from a re-analysis of the deposited data

Results flagged for a closer look

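In 4 of 60 groups of 4 arrays (30 members in 2 genotypes), 1 array stood far from the other 3, where chance gives about 3. The level of RBCS1B in wild-type replicate 4 was 7.25, against 7.03 to 7.05 in the other wild-type arrays. GAPA1 in wild-type replicate 1 was 6.09, against 5.91 to 5.94. CP12-2 in transgenic replicate 3 was 3.09, against 3.28 to 3.31 in the other transgenic arrays. PGLP1 in wild-type replicate 1 was 2.64, against 2.40 to 2.44, and without that array the change of PGLP1 was 0.38 (adjusted p = 0.0406 from limma).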

How the results depend on the processing

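Of the called members, TIM lost its call in 1 of 20 alternatives (median scaling), FBA1, SBPASE, GOX2 and AGT in 1 each (normexp, adjusted p of 0.0769 to 0.67), GLDP1 in 6, GAPA2 in 9, PGLP1 in 11 and GOX1 in 13, with no called member reversed. Where the cause of a move is not given by fewer arrays, it was not tested. With normexp, 1285 genes were higher and 1499 lower in place of 4661 and 4025, members 1 and 0, other Calvin cycle genes 4 and 1, and other photorespiration genes 2 and 1. With median scaling, which moved the median of all genes from 0.03 to -0.06, 38.9% of the called genes were higher in place of 53.7%, and the higher counts were 1, 3 and 2 in the same order of lists. Without a filter they were 2, 4 and 3. With the slide as a block 3 other photorespiration genes were higher, and with each gene's dimmest probe, an alternative added after seeing the data, also 3. That probe choice gave shifts of 0.21 for the GAPA pair, 0.70 for the FBA pair and 0.029 for the GLDP pair. The adjusted p of the exact permutation test was 0.0714, 0.0714 and 0.83, none under 0.05. The GAPA and FBA pairs kept the smallest possible exact p, and their adjusted p rose because the GLDP pair did not keep it. The same probe choice called RBCS1A higher (0.64), and RBCS1B (-0.37) and CP12-1 (-0.28) lower. Leaving out 1 array gave 2 to 4 members higher and 3 to 5 lower, 2 to 6 and 2 of the other Calvin cycle genes, 2 to 5 and 2 to 3 of the other photorespiration genes, and shifts of 0.26 to 0.32 (GAPA), 0.34 to 0.48 (FBA) and 0.37 to 0.44 (GLDP). With the replicate number as a block 3 members were higher and 4 lower, GOX1 (adjusted p = 0.0823) and PGLP1 (0.0552) losing their calls, with 7 and 2 of the other Calvin cycle genes and 4 and 2 of the other photorespiration genes; 1 of 4 transgenic arrays correlated best with its own number. No block was fitted for the isoform pairs.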
